A study of Mus musculus with 6 samples.

Results

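Growth factors that macrophages can release were measured as transcripts in large peritoneal macrophages, the resident phagocytes that dominate the unstimulated mouse peritoneum, sorted 30 min after intraperitoneal E. coli. The set was chosen by name and held 10 of the 20336 genes of the table: Pdgfb, Pdgfa, Pdgfc, Vegfa, Vegfb, Tgfb1, Igf1, Hbegf, Csf1 and Areg. The genes were listed with results of these data in view, and Pdgfb was included because it stood low in the knockout, so the genotype differences of the 10 genes are given as descriptions. Counts of calls among them stand beside those over all genes and support nothing. All 10 had counts in at least 1 library, and 9 passed the filter on low counts; Pdgfc did not.

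Both groups were infected and sequenced as polyA RNA. The floxed control (3 libraries) had the genotype PAC F/F, a floxed gene for the proton-activated chloride channel PAC. The PAC knockout (3 libraries) is labelled Cxcr3-PAC-/-, but the series text writes Cx3cr1 in that place, and the spelling was not settled. The sources used here give no strain, age or sex, and no driver allele for the control, so effects of a driver cannot be told apart from those of channel loss. Cells from mice given PBS were not analysed here, so these data do not show which values changed with infection. The labels do not say that each library came from its own mouse, so p-values measure the spread between these libraries only.

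Growth factors are secreted or shed proteins that bind receptors on other cells or on the releasing cell itself. PDGF and VEGF chains are related dimers that act on receptor tyrosine kinases of mesenchymal and endothelial cells. Amphiregulin (Areg) and heparin-binding EGF-like growth factor (Hbegf) are made as membrane precursors, cut free by the protease ADAM17, and bind the EGF receptor. TGF-beta1 is secreted in a latent form that must be activated, IGF1 promotes growth and survival and is carried by binding proteins, and CSF1 is the ligand on which resident macrophages depend for survival.

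Depth was 15981530 to 20648832 counts per library, and a count of 0 allows a level of up to 0.154 to 0.190 CPM (3 counts, counting error only). Levels in CPM are counts scaled to a common library size with TMM factors. The targeted gene, listed as Tmem206, had 4.27, 6.13 and 5.49 CPM in the knockout and 6.33, 12.2 and 8.16 CPM in the control. Its log2 fold change was -0.75 (SE 0.31), with an edgeR unadjusted p of 0.0367 and an adjusted p of 0.997. The Tmem206 groups did not overlap, as for 4.86% of all genes tested with the knockout lower. The counts cover the whole gene, not the floxed part alone. Markers of large peritoneal macrophages were abundant in every library, their 10 genes summing to 18095 to 23764 CPM in the control and 21486 to 24016 CPM in the knockout, mostly from Alox15 (6555 to 10019 CPM) and Prg4. Of these 10 genes, 9 were higher in the knockout. Their median on the log2 scale was 0.22 (0.18 to 0.32 with 1 library left out). By edgeR 3 of the 10 had an unadjusted p under 0.05, all higher, beside 4.18% of all genes tested, and none was called.

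The 2 most abundant transcripts of the set were Areg and Tgfb1, and the genotype difference of each was smaller than its SE. Levels between genes were compared as the authors' FPKM, which divides by gene length. Areg (ENSMUSG00000029378, GRCm38 chromosome 5, 91139599 to 91148432, plus strand) had 435 to 667 FPKM with a median of 523 FPKM over the 6 libraries, and 99.2% of the 12786 genes tested had a lower mean FPKM. Tgfb1 (ENSMUSG00000002603, chromosome 7, 25687002 to 25705077, plus strand) had 66.5 to 88.2 FPKM with a median of 72.5 FPKM, above 95.2% of genes tested. The ranges of the 2 genes did not touch.

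The bases before the RefSeq start of these 2 genes are shown because their levels stood apart from the rest of the set (GRCm38.p6, 250 bases each, 5′ to 3′; Areg at chr5:91139349-91139598 and Tgfb1 at chr7:25686752-25687001, plus strand). Capitals mark the TATA box letters TATAAA, the cAMP response element TGACGTCA and the GC box GGGCGG on either strand.
Areg: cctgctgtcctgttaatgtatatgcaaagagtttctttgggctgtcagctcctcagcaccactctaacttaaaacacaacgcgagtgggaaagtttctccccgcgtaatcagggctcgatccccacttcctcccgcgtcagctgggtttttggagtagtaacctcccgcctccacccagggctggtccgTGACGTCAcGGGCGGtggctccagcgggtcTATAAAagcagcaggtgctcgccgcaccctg
Tgfb1: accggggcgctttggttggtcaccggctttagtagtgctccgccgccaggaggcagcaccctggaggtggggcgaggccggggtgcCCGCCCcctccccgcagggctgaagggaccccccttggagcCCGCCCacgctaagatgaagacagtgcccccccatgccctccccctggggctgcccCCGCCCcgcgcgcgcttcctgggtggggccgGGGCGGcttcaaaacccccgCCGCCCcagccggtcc
The Areg stretch held 1 TATAAA, 1 TGACGTCA and 1 GC box, and the Tgfb1 stretch held 5 GC boxes and neither of the other letters. G or C made up 57.2% of the Areg stretch and 75.2% of the Tgfb1 stretch. Over 32851 stretches of the same length in the RefSeq table, 12.4% held TATAAA, 1.55% held TGACGTCA and 32.7% held GGGCGG, both strands counted. The table had 10 entries for 8 genes of the set, of which 8 entries held a GC box and only the Areg entry held TATAAA or TGACGTCA. The AP-1 letters TGANTCA (6.75% of all stretches) were found in the Igf1 entry and the hypoxia response letters ACGTG (16.6%) in 1 Vegfa entry. These motifs share no bases in the printed stretches. Pdgfb and Hbegf have no entry. A match says that the letters are there, not that a factor bound.

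Among the other genes the order per length was less firm. Hbegf (median 7.92 FPKM), Csf1 (7.83 FPKM) and Igf1 (6.82 FPKM) followed Tgfb1, and their ranges overlapped: Hbegf exceeded Csf1 in 3 of 6 libraries and Csf1 exceeded Igf1 in 4 of 6. Vegfa (1.98 FPKM), Pdgfb (1.66 FPKM), Vegfb (1.37 FPKM) and Pdgfa (1.22 FPKM) came next, with overlapping ranges. Vegfa exceeded Pdgfb in 3 of 6 libraries, Pdgfb exceeded Vegfb in 4 of 6 and Vegfb exceeded Pdgfa in 4 of 6. Igf1 exceeded Vegfa in 6 of 6 libraries without overlap. Pdgfc was last, at 0 to 0.115 FPKM. Of the 9 neighbouring pairs, 4 kept their order in every library.

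**Figure D1:**
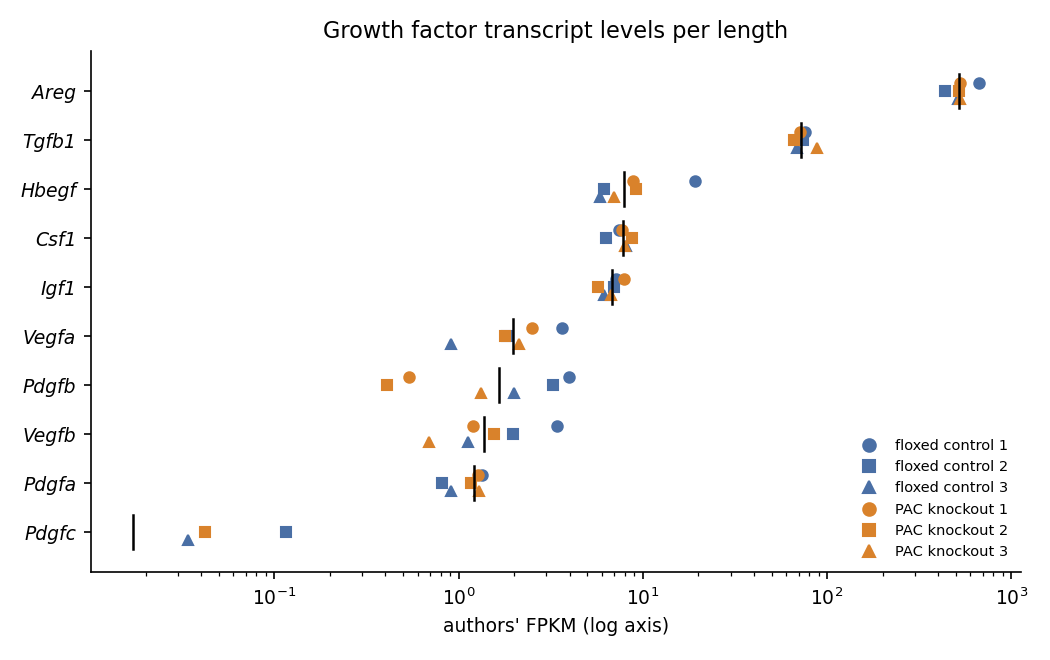
Authors' FPKM of the 10 growth factor genes on a log axis, 1 symbol per library (blue, floxed control; orange, PAC knockout) and a bar at the median of the 6 libraries; 3 values of 0 for Pdgfc are not drawn. Areg (median 523 FPKM) and Tgfb1 (72.5 FPKM) lie apart from the rest, and Hbegf, Csf1 and Igf1 overlap.

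Of the PDGF chains, Pdgfb was lower in all 3 knockout libraries, while Pdgfa was not. Pdgfb (ENSMUSG00000000489, chromosome 15, 79995874 to 80014977, minus strand) encodes the B chain, a mitogen for pericytes, smooth muscle cells and fibroblasts. The control libraries had 280, 208 and 144 counts (replicates 1, 2 and 3, the order used throughout), and the knockout libraries 34, 24 and 89. Scaled, these were 14.4, 12.1 and 7.58 CPM against 2.02, 1.52 and 4.93 CPM. The lowest control library, replicate 3, lay above the highest knockout library, also replicate 3. The exact (Clopper-Pearson) 95% counting intervals of those 2 libraries were 6.39 to 8.93 CPM and 3.96 to 6.07 CPM and did not overlap; such intervals cover counting error only. The group means were 11.4 ± 3.47 CPM and 2.82 ± 1.84 CPM (SD, n = 3). The fitted log2 fold change was -2.00 (SE 0.44), or 25.0% of the control level. The log2 fold change was -1.70 without knockout replicate 2 and -2.68 without knockout replicate 3. In these bulk samples, fewer cells that express a gene and less RNA per cell cannot be told apart.

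Pdgfa (ENSMUSG00000025856, chromosome 5, 138976014 to 138997370, minus strand) encodes the A chain, which pairs with itself or with the B chain. It had 3.65, 2.26 and 2.58 CPM in the control and 3.56, 3.22 and 3.60 CPM in the knockout. The groups overlapped through control replicate 1, and the log2 fold change was 0.29 (SE 0.39). It was 0.52 without control replicate 1 and 0.15 without control replicate 2. In GENCODE M21, the opposite-strand gene 6330403L08Rik shares 813 exonic bases with Pdgfa and had 3.19 to 6.43 CPM here. The sources used here do not state whether counting used strand, so it is not known how reads in those shared bases were assigned. Pdgfc (ENSMUSG00000028019, chromosome 3, 81036416 to 81214040), a chain that needs proteolytic activation, had 0, 9 and 3 counts in the control and 0, 3 and 0 in the knockout. A genotype difference in Pdgfc was not detectable at this depth.

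Both VEGF genes varied widely within the control. Vegfa (ENSMUSG00000023951, chromosome 17, 46016993 to 46032369, minus strand), the main angiogenic VEGF, had 13.7, 7.02 and 3.53 CPM in the control and 9.61, 6.83 and 8.20 CPM in the knockout. The control libraries thus spanned the whole knockout range, and the log2 fold change was 0.02 (SE 0.42). It moved to 0.64 without control replicate 1 and to -0.33 without control replicate 3. Vegfb (ENSMUSG00000024962, chromosome 19, 6982473 to 6987651, minus strand), a VEGF linked to fatty acid handling in heart and muscle, rested on 18 to 93 counts per library. It had 4.79, 2.84 and 1.63 CPM in the control and 1.72, 2.21 and 0.998 CPM in the knockout. Control replicate 3 fell inside the knockout range, and the log2 fold change of -0.91 (SE 0.55) became -0.44 without control replicate 1.

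The 2 EGF receptor ligands shared their highest library. Hbegf (ENSMUSG00000024486, chromosome 18, 36504929 to 36515805, minus strand) had 39.6, 13.1 and 12.6 CPM in the control and 18.9, 19.3 and 14.9 CPM in the knockout. Control replicate 1 stood far above every other library, and control replicates 2 and 3 lay below all 3 knockout libraries. The log2 fold change was -0.30 (SE 0.45) with all libraries and 0.46 without control replicate 1, the opposite sign. Areg had 707, 471 and 564 CPM in the control and 575, 563 and 571 CPM in the knockout. The SD was 6.04 CPM in the knockout (n = 3) and 119 CPM in the control (n = 3). The group means were 581 and 570 CPM, with a log2 fold change of -0.03 (SE 0.15), which was 0.14 without control replicate 1 and -0.16 without control replicate 2.

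The remaining 3 genes had the steadiest values. Tgfb1, the cytokine that restrains inflammation and drives matrix deposition, had 334, 333 and 314 CPM in the control and 322, 298 and 399 CPM in the knockout. Its log2 fold change was 0.06 (SE 0.14), and -0.07 without knockout replicate 3, the highest library. Igf1 (ENSMUSG00000020053, chromosome 10, 87858265 to 87937042, plus strand) had 61.4, 61.2 and 55.5 CPM against 70.3, 50.5 and 59.6 CPM. The knockout libraries lay on both sides of the control, with a log2 fold change of 0.02 (SE 0.15), which was -0.11 without knockout replicate 1 and 0.13 without knockout replicate 2. Csf1 (ENSMUSG00000014599, chromosome 3, 107741048 to 107760469, minus strand) had 34.1, 29.6 and 38.9 CPM against 36.4, 40.7 and 37.9 CPM. The groups overlapped through control replicate 3, and the log2 fold change was 0.17 (SE 0.15), which was 0.07 without control replicate 2 and 0.27 without control replicate 3.

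**Figure D2:**
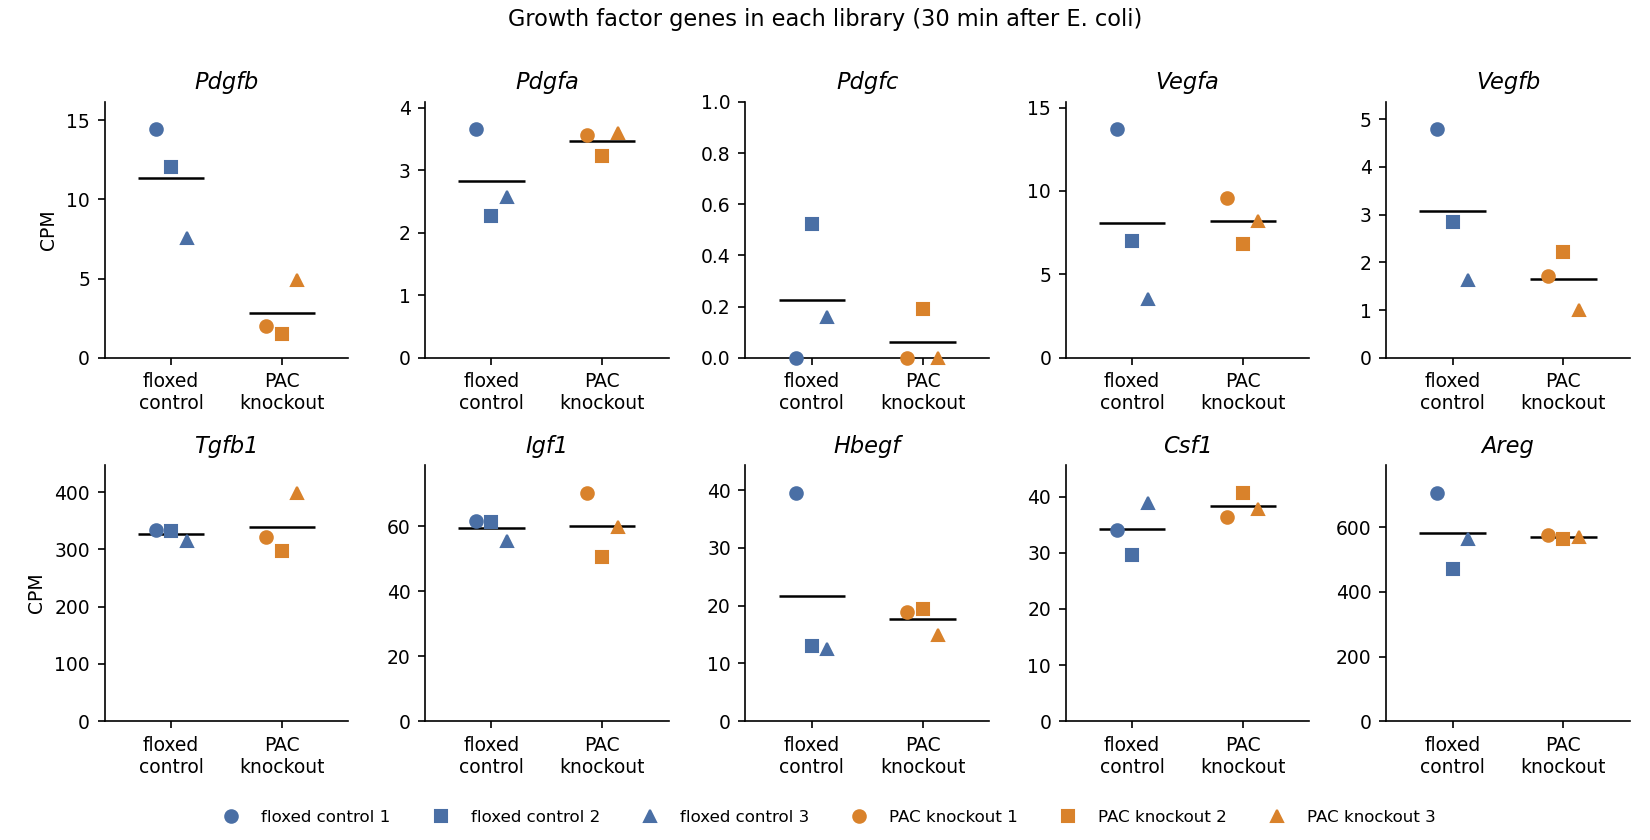
CPM of each growth factor gene (linear axes from 0), 1 symbol per library by replicate number and a bar at the mean of each group (n = 3). Pdgfb is the gene whose groups do not overlap (lowest control 7.58 CPM, highest knockout 4.93 CPM), and the circle of control replicate 1 is highest in Hbegf at 39.6 CPM.

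Set against all genes, the genotype comparison called 0 of the 9 tested growth factors by edgeR's quasi-likelihood test with Benjamini-Hochberg adjustment, and 0% of 12786 genes. At an unadjusted p under 0.05 there was 1 of 9, Pdgfb, and 4.18% of all genes. DESeq2 called 1 of 9, again Pdgfb, against 0.172% of all genes, and edgeR with no filter on low counts called Pdgfb of 10, against 0.187%. The authors' deposited table has Pdgfb alone of the 10 under an adjusted p of 0.05, with a log2 fold change of -2.01, and 0.108% of all its genes. Groups that did not overlap, with the knockout lower, were found for 1 of 9 growth factors and for 4.86% of all genes; with the knockout higher, for 0 of 9 and 4.47%. Since Pdgfb was included for this very contrast, nothing is read from these counts. Of the 9 genes, 5 had log2 fold changes above 0 and 4 below, with a median of 0.02, beside -0.01 over all genes tested. That split rested on single libraries: 7 were above 0 without control replicate 1 (median 0.14), and 3 without knockout replicate 1 (median -0.10) or control replicate 3 (median -0.05).

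**Figure D3:**
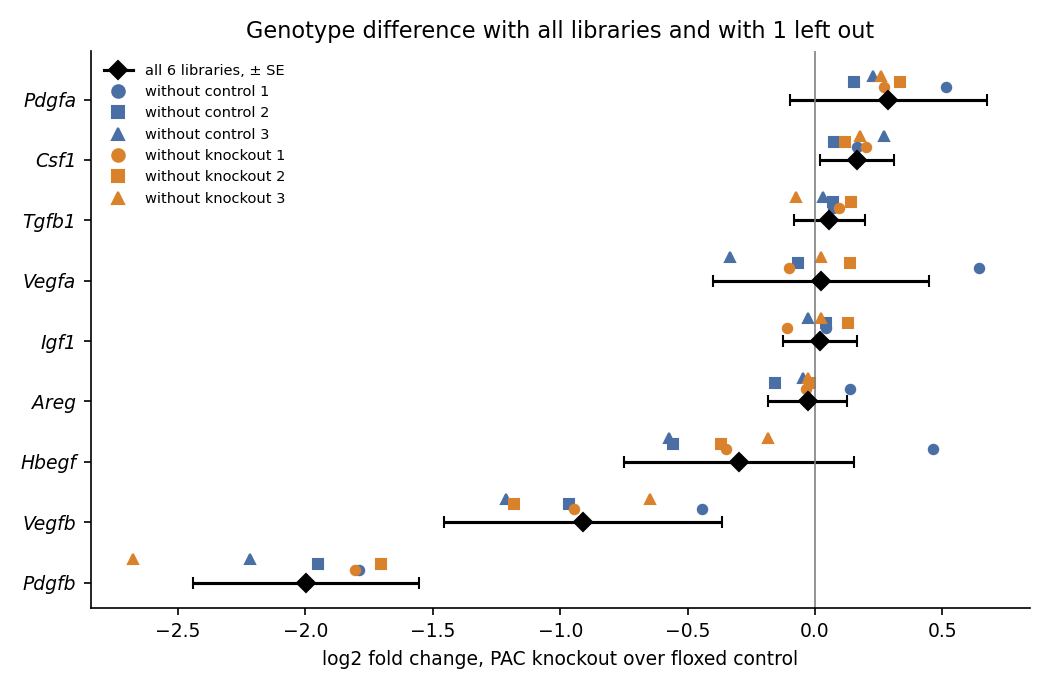
Log2 fold change of PAC knockout over floxed control for the 9 tested growth factors with all 6 libraries (diamond, bar ± SE) and with each library left out in turn (small symbols). Pdgfb stays between -2.68 and -1.70, and Hbegf and Vegfa move to 0.46 and 0.64 without control replicate 1.

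Spread between libraries differed among the 9 genes. The SD of log2 CPM, pooled over the 2 groups, was 0.70 for Vegfa, 0.69 for Pdgfb, 0.68 for Hbegf and 0.65 for Vegfb. It was 0.25 for Pdgfa, 0.21 for Areg, 0.18 for Igf1, 0.16 for Tgfb1 and 0.15 for Csf1. The median over all genes tested was 0.28. It was 0.55 over the 1151 genes of average log2 CPM from 1 to 2 (where Vegfb and Pdgfa lie). Over the 3268 genes from 2 to 4 (where Pdgfb and Vegfa lie) it was 0.33. Over the 6445 genes of 4 or more (where Hbegf, Areg, Igf1, Tgfb1 and Csf1 lie) it was 0.19. Hbegf, Pdgfb and Vegfa thus lay well above the median spread of genes of their level, and Vegfb and Areg slightly above it. Control replicate 1 was the highest library for 6 of the 9 genes: Pdgfb, Pdgfa, Vegfa, Vegfb, Hbegf and Areg. It was the highest library for 20.1% of all genes tested. Across the 6 libraries Hbegf and Areg had a Pearson r of 0.86, and Vegfa and Hbegf 0.79, which became 0.49 and 0.63 over the 5 libraries without control replicate 1. These are descriptions: the genes share the same libraries.

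The genes whose pattern across the 6 libraries was most like that of Pdgfb, by Pearson's r of log2 CPM, were Ric1, Wbp4, Siah1a, Rgs3 and Anxa5. Their r was 0.98 to 0.99 over 6 libraries, and they were picked from 10182 coding genes with a mean log2 CPM of 1 or more. Picking by r over both groups favours genes that, like Pdgfb, are lower in the knockout. Their r and log2 fold changes therefore follow from the choice and are descriptions. Anxa5, a phosphatidylserine-binding annexin, had 119, 114 and 80.8 CPM in the control and 59.1, 46.8 and 82.1 CPM in the knockout. Siah1a, a ubiquitin ligase, had 8.29, 8.70 and 6.32 CPM against 4.39, 4.17 and 6.32 CPM. The ranges of the other 3 were narrower, with log2 fold changes of -0.16 for Ric1, -0.23 for Wbp4 and -0.52 for Rgs3, a regulator of G protein signalling. The log2 fold change of Siah1a was -0.64 and that of Anxa5 -0.74, beside -2.00 for Pdgfb. By Spearman's rho, 17 genes tied at 1, among them 2 of these 5.

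The pathways around the ligands were described by 8 lists of 154 genes, of which 121 were tested. None of the 121 was called in either direction by edgeR's quasi-likelihood test, as for all genes (0%). At an unadjusted p under 0.05 there were 8, of which 2 had higher and 6 lower values in the knockout (6.61%, beside 4.18% of all genes). DESeq2 called 0 of them, and edgeR with no filter on low counts called 2, Tgfbr3 and Jund. Adjusted p-values below are from edgeR and are 0.997 for every gene named. Naming genes by their small p favours groups that do not overlap, so such separation is a description. Over all genes tested it was found for 4.86% with the knockout lower and 4.47% with the knockout higher.

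Receptors had mostly lower values in the knockout. Of 20 receptors and co-receptors, 15 were tested, 4 higher and 11 lower in the knockout, and the list's median was -0.35 on the log2 scale. That median was -0.12 without knockout replicate 3, -0.16 without control replicate 2 and -0.20 without control replicate 1. Tgfbr3, the TGF-beta co-receptor betaglycan, had 67.7, 48.2 and 33.4 CPM in the control and 23.4, 25.0 and 31.3 CPM in the knockout. Its groups did not overlap, with a log2 fold change of -0.91 (SE 0.24), and its adjusted p was 0.0100 with no filter on low counts. Nrp1, a co-receptor for VEGF, stood at -0.36 (SE 0.15), and Egfr, the receptor for Areg and Hbegf, at -0.76 (SE 0.38) with 2.37 to 6.49 CPM. Csf1r, Pdgfrb and Pdgfra were chosen after their values were seen. Csf1r, the receptor for CSF1, had 1605 to 1874 CPM. Pdgfrb, a receptor for the PDGF B chain, had 0 to 0.309 CPM, and the related receptor Pdgfra 0 to 0.499 CPM.

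Release and activation genes ranged widely in level, and none was called. Of 23 genes, 4 were not in the table and 18 were tested, 8 with higher and 10 with lower values (median -0.03, and 0.08 without control replicate 1). Adam17, the sheddase for Areg and Hbegf, had 143, 136 and 127 CPM in the control and 158, 157 and 155 CPM in the knockout. Its groups did not overlap, with a log2 fold change of 0.21 (SE 0.12). Thbs1, thrombospondin-1, which can activate latent TGF-beta, had 13535 to 23052 CPM in the control and 19744 to 23981 CPM in the knockout, with a log2 fold change of 0.32 (SE 0.20). The gelatinase Mmp9 stood at -0.79 (SE 0.29), its groups overlapping. Of 10 genes of IGF-binding proteins and their proteases only Igfbp4 was tested, at -0.13 (SE 0.23).

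Intracellular signalling lists had medians near 0. SMAD signalling and TGF-beta target genes (19 tested, 6 higher, 13 lower, median -0.09) included the signal transducer Smad2 at -0.32 (SE 0.15) and the repressor Tgif1 at 0.23 (SE 0.12). The groups of both genes, named for their small p, did not overlap between genotypes. Receptor tyrosine kinase adaptors and feedback genes (19 tested, 6 higher, 13 lower, median -0.03) included the ubiquitin ligase Cblb at -0.42 (SE 0.19), Spry1 at 0.59 (SE 0.35) and Spred1 at -0.25 (SE 0.16). Hypoxia pathway genes, which regulate or accompany Vegfa, had 7 higher and 10 lower of 17 (median -0.05). In that list Hif1a stood at -0.40 (SE 0.19), adrenomedullin (Adm) at -0.49 (SE 0.30) and the oxygen sensor Egln1 at -0.16 (SE 0.14). Without control replicate 1 the medians of these 3 lists were 0.04, 0.07 and 0.01.

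Immediate early transcription factors, which include activators of growth factor genes, had 5 higher and 13 lower of 18 tested (median -0.07, and 0.14 without control replicate 2). The AP-1 subunit Jund had 351, 270 and 231 CPM in the control and 143, 187 and 186 CPM in the knockout, a log2 fold change of -0.72 (SE 0.18), with an adjusted p of 0.00602 when no filter was used. Klf4 stood at -0.44 (SE 0.13), and Crem, a cAMP-responsive factor, at 0.62 (SE 0.22). The groups of these 3 genes, named for their small p, did not overlap. Over all genes tested this held for 4.86% with the knockout lower and 4.47% with the knockout higher.

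Other growth factors had 10 higher and 4 lower of 14 tested from a list of 28, with a median of 0.17 (0.31 without control replicate 1). The highest mean FPKM values in that list were 592 for progranulin (Grn), 261 for oncostatin M (Osm) and 245 for Lif. Their log2 fold changes were 0.14 (SE 0.13), 0.21 (SE 0.16) and 0.10 (SE 0.25). Those of smallest p were the granulocyte factor Csf3 at 0.48 (SE 0.25), Tgfb2 at 0.32 (SE 0.22) and epigen (Epgn) at 1.06 (SE 0.78), the last at 0.388 to 1.83 CPM, and the groups of all 3 overlapped.

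**Figure D4:**
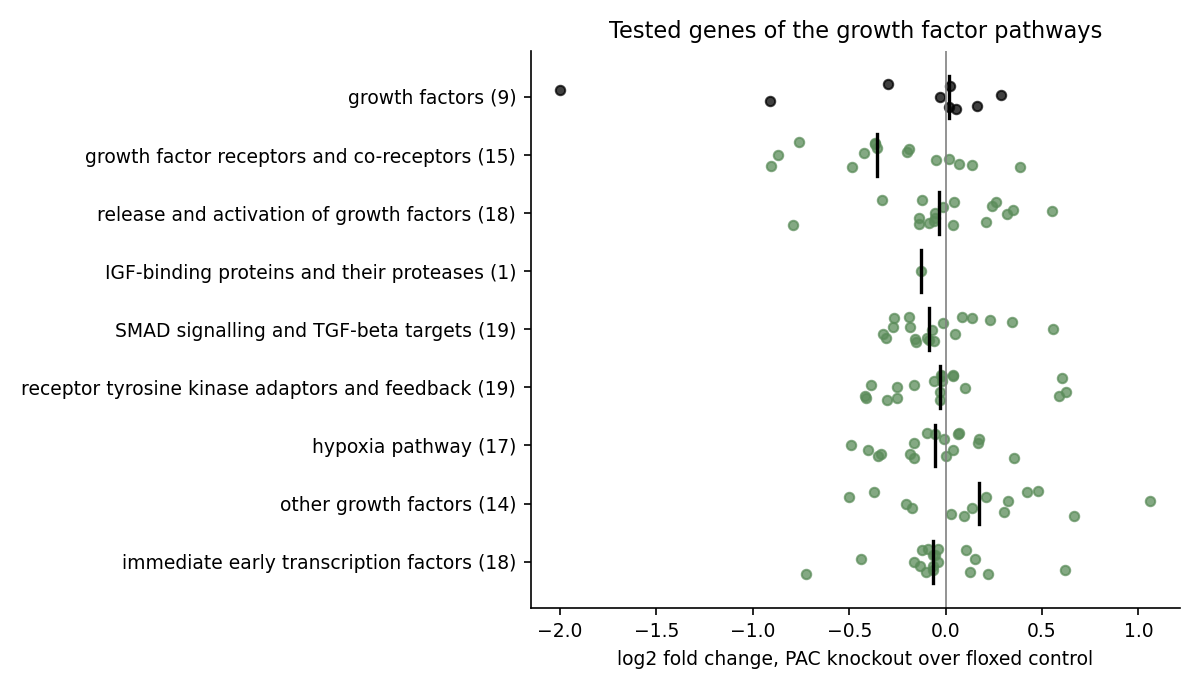
Log2 fold change of PAC knockout over floxed control for each tested gene of the growth factor set (black) and of the 8 pathway lists (green), with a bar at each list's median and the number tested in brackets. The receptor list has its median at -0.35, and the other pathway medians lie between -0.13 and 0.17.

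Markers of other cells were summed because platelets and endothelium are known sources of PDGF-B and mast cells and lymphocytes of amphiregulin. Small peritoneal macrophage and monocyte markers, which were tested for 10 of 11 genes, had lower values in the knockout for 8 and higher values for 2, with summed levels of 1699 to 2018 CPM in the control and 712 to 1742 CPM in the knockout. Of the 10 genes, 6 had an unadjusted p under 0.05 in edgeR, all lower, beside 4.18% of all genes tested, and none was called. The list was chosen with earlier results known and its genes share the same libraries, so the count is a description. Their median log2 fold change was -1.29, and it was -0.74 without control replicate 2. In that list the chemokine receptor Ccr2, chosen after its values were seen, had 61.4, 122 and 54.4 CPM in the control and 20.5, 17.1 and 34.6 CPM in the knockout. Like Pdgfb, and like 4.86% of all genes tested, Ccr2 was lower in all 3 knockout libraries. Both genes were highest among the knockout libraries in replicate 3. Among the control libraries they differed, with Ccr2 highest in replicate 2 and Pdgfb in replicate 1. Retnla, the most abundant gene of the list, had 539 to 1005 CPM in the control and 94.8 to 541 CPM in the knockout. The 2 genes with higher values were the MHC class II genes H2-Aa and H2-Ab1, named after their values were seen. H2-Aa had 287 to 453 CPM in the control and 259 to 722 CPM in the knockout. H2-Ab1 had 308 to 558 CPM and 280 to 695 CPM. Both were highest in knockout replicate 1, where they made up most of the list's sum of 1742 CPM. The part of small peritoneal macrophages and monocytes in the Pdgfb difference was not tested. Nor was that of the large macrophage markers, which had higher values in the knockout.

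Platelet and megakaryocyte markers summed to 420 to 593 CPM in the control and 513 to 685 CPM in the knockout, over 7 measured genes of 10, nearly all of it Pf4 (417 to 683 CPM), which macrophages also express. The other 6 measured genes, named after their values were seen, were lower. Ppbp had 0 to 0.158 CPM, Gp9 0 to 0.360 CPM and Treml1 0 to 0.103 CPM, each at 0 in 5 of 6 libraries. Gp1ba had 0.415 to 0.948 CPM, Itga2b 0.166 to 2.09 CPM and Clec1b 0.569 to 3.71 CPM. The part of platelet RNA in the Pdgfb values was not tested. Endothelial markers summed to 2.00 to 11.9 CPM in the control and 2.78 to 7.06 CPM in the knockout, with Pecam1, the most abundant of 5 measured of 9, at 0.737 to 9.91 CPM. Mast cell, basophil and eosinophil markers summed to 3.96 to 8.84 CPM in the control and 2.33 to 39.0 CPM in the knockout. They were highest in knockout replicate 1, where Cma1 had 11.9 CPM and Areg 575 CPM. T, NK and innate lymphoid cell markers summed to 7.05 to 12.7 CPM in the control and 8.60 to 22.9 CPM in the knockout, with Il1rl1 at 3.16 to 12.3 CPM. B cell markers summed to 42.2 to 498 CPM in the control and 66.6 to 285 CPM in the knockout. Control replicate 2 was their highest library (Ighm 246 CPM), and there Areg (471 CPM), Csf1 (29.6 CPM) and Pdgfa (2.26 CPM) were lowest. The part of B cell RNA in those values was not tested. Mesothelial and fibroblast markers (2.49 to 11.1 CPM over the 6 libraries, Col3a1 up to 3.50 CPM), dendritic cell markers (7.69 to 20.1 CPM, Cd209a up to 8.44 CPM) and erythroid markers (0.297 to 8.37 CPM, Hbb-bs up to 5.04 CPM) were low. Neutrophil markers were low too, with sums of 2.47 to 5.15 CPM in the control and 5.21 to 16.1 CPM in the knockout (S100a8 up to 6.13 CPM). The sums did not overlap between groups but nearly met, at 5.15 and 5.21 CPM. Of the 9 genes only 1, S100a8, passed the filter on low counts. Among all genes tested, 4.47% had groups that did not overlap with the knockout higher. The part of neutrophil RNA in the growth factor values was not tested.

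**Figure D5:**
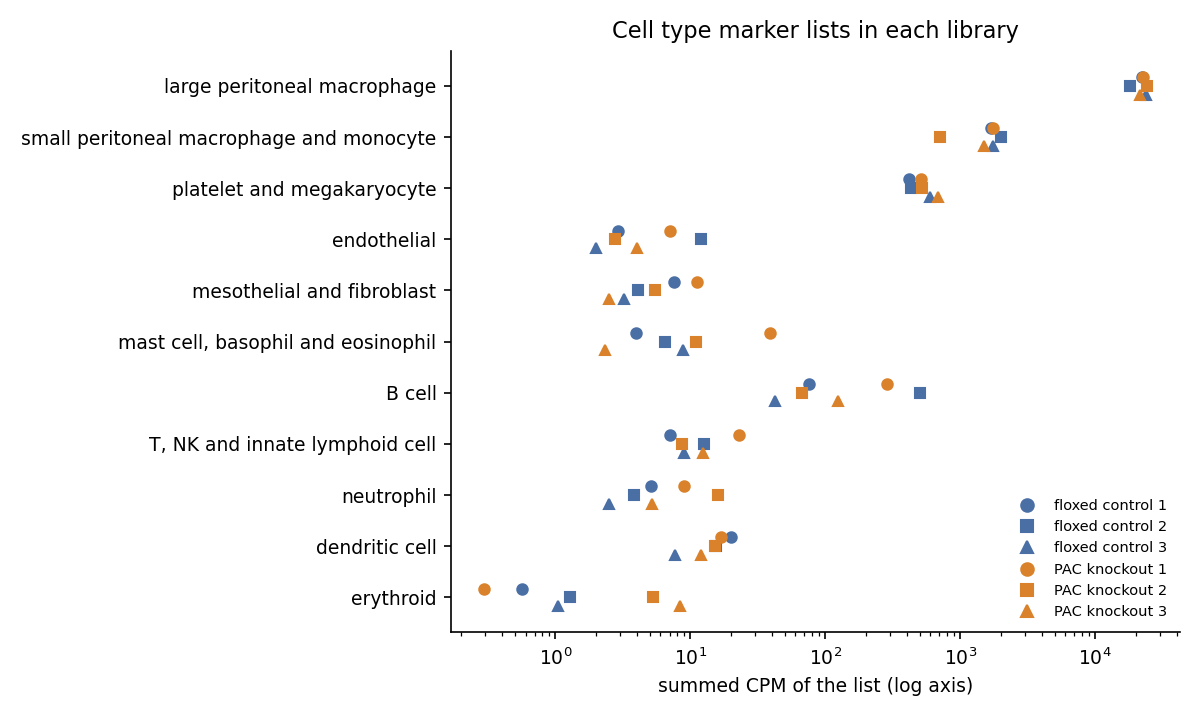
Summed CPM of each cell type marker list in each library on a log axis (blue, floxed control; orange, PAC knockout). Large peritoneal macrophage markers reach at least 18095 CPM in every library, and small peritoneal macrophage and monocyte markers are lowest in knockout replicate 2 at 712 CPM.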

How the data were processed

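PolyA RNA of sorted, E. coli-infected large peritoneal macrophages was measured in 6 libraries, 3 per genotype. The submitters' processing notes name HISAT2 2.0.5 and featureCounts 1.5.0-p3, and the series text GRCm38; no source used here names the annotation release or strand setting. The deposited table holds raw counts per gene, which were tested. It also holds the authors' FPKM (per the series text, derived from each gene's length and reads), used for levels between genes. The authors' normalised signal (count over 1 size factor per library) was not used, and their deposited log2 fold changes and p-values are printed only where named. Columns of other samples numbered 0. No pair of libraries of the same group was within sampling noise (chi-square per gene at least 32.0).

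Low genes were removed with filterByExpr, and libraries were scaled by TMM. edgeR 4.0.16's robust quasi-likelihood test was run in R 4.3.3 over 12786 genes, with no term but genotype, and p-values were adjusted by Benjamini-Hochberg (threshold 0.05); SEs derive from its F statistic. The procedure was tested on simulated data. CPM uses TMM-scaled totals of tested genes, and log2 CPM a prior count of 2. DESeq2 1.42.0 and limma-voom (limma 3.58.1) were alternatives, besides other scalings and filters, a replicate block and each library left out. No source used here says that same-numbered libraries share an animal or a day.

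The members and gene lists were chosen with earlier results of these data known. The text names all 10 members, the 3 genes of smallest p per pathway list, the 3 other growth factors of highest FPKM, the 5 genes most like Pdgfb, the most abundant gene of each marker list and the targeted gene; exceptions are marked, and 1 gene that the rule picks is not reported here. Promoter sequences are RefSeq's (GRCm38.p6), and overlapping genes come from GENCODE M21, whose start and end equal those of the table for 9 of the 10 members.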

Additional observations from a re-analysis of the deposited data

How the results depend on the processing

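The number of genes called was 0 with edgeR under TMM, DESeq2-type size factors, library totals, the stricter filter (1 CPM in 3 libraries), and with limma-voom. Without the low-count filter edgeR called 38 (20 higher, 18 lower), including 1 growth factor (Pdgfb) and 2 pathway genes, and DESeq2 called 22 (11 higher, 11 lower), including 1 growth factor. With 1 library left out edgeR called 0 to 18 (0 to 8 higher, 0 to 10 lower), with 0 growth factors and 0 pathway genes each time: 18 without floxed control replicate 3, 5 without knockout replicate 1 and 2 without floxed control replicate 1. Low counts for Pdgfc and Vegfb, and 3 libraries per group, limit what could be detected. The cause of the differences between settings was not tested.

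Of the growth factors, Pdgfb was lower in the knockout under every setting run, from -2.68 to -1.70 with 1 library left out and -2.28 with limma-voom. The Hbegf log2 fold change turned to 0.46 without floxed control replicate 1. Those of Vegfa (-0.33 to 0.64), Tgfb1 (-0.07 to 0.14), Igf1 (-0.11 to 0.13) and Areg (-0.16 to 0.14) also changed sign with 1 library left out. With limma-voom the signs of Igf1 (-0.01) and Areg (0.04) changed as well. Igfbp4 ran from -0.35 to 0.11 and Lif from -0.19 to 0.35 with 1 library left out, changing sign without floxed control replicate 2 (0.11 and -0.04) or knockout replicate 2 (0.05 and -0.19). The order of levels per length held in 4 of 9 neighbouring pairs under each setting run.

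With the replicate number as a block, 0 genes were called and Pdgfb had -2.12. No source used here says that the numbers pair the libraries. Deviations from the group means of same-numbered libraries correlated at -0.048, -0.061 and 0.085 for replicates 1, 2 and 3. Only replicate 3 correlated best with its own number. Centring each group of 3 on its own mean ties these correlations to each other, so they cannot show whether libraries shared a day or batch.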

Other observations

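Epiregulin (Ereg), another ligand of the EGF receptor family found in the list of other growth factors, was chosen after its values were seen. So were Rhbdf2, Furin, Egr1, Egf, Tgfa, Btc and Adam10. Ereg had 57.2, 29.9 and 26.4 CPM in floxed control replicates 1, 2 and 3 and 15.7, 40.3 and 24.6 CPM in the knockout replicates. Floxed control replicate 1 was again the highest library, as for Hbegf and Areg. Other ligands of the list, at low levels, peaked elsewhere. Epgn (1.83 CPM) and Egf (1.96 CPM) were highest in knockout replicate 2, Tgfa (0.593 CPM) in knockout replicate 1 and Btc (0.754 CPM) in floxed control replicate 2. The iRhom gene Rhbdf2, a partner of ADAM17, was highest in floxed control replicate 1, with 237 CPM against 119 to 181 CPM in the other 5 libraries. So was the convertase Furin, with 166 CPM against 95.1 to 118 CPM. Adam17 was instead highest in knockout replicate 1 (158 CPM) and Adam10 in knockout replicate 3 (210 CPM). Egr1, an immediate early transcription factor, was instead highest in floxed control replicate 2 (1989 CPM) and knockout replicate 2 (1803 CPM), against 815 to 895 CPM in the other 4 libraries. The groups of Ereg, Rhbdf2, Furin and Egr1 overlapped.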
